A study of Gossypium barbadense and Gossypium hirsutum with 4 samples.

Results

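The subject is a set of 35 probe sets on the Affymetrix cotton array that gave clear signal in fibre of Gossypium barbadense and little or none in fibre of Gossypium hirsutum. They were selected on the measured signal itself. A probe set entered if its ID began with Ghi, GhiAffx, Gra or GraAffx, if it read above log2 7 on both arrays of VH8-4602, and if it read below log2 4 on both arrays of Guazuncho 2. Of the 23868 probe sets with these 4 ID prefixes, the 35 made up 0.147%, and of the 8743 that lay above 7 on both VH8-4602 arrays they made up 0.400%. Because the rule used the contrast between the genotypes, the size of that contrast is described below and was not tested.

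VH8-4602 is a line of G. barbadense and Guazuncho 2 a line of G. hirsutum, with 2 one-colour arrays for each. All 4 RNA samples came from fibre at 11 days post-anthesis, from untreated plants grown from seed in a glasshouse and harvested on a single day. Each species is represented by 1 line, so species and line cannot be told apart, and whether replicates are separate plants is not stated in the labels. The spread between replicates may therefore be technical only, and the small number of arrays limits the precision.

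A cotton fibre is a single cell that grows out from the outer layer of the seed coat, elongates for weeks and later lays down a thick secondary wall of cellulose. At the age sampled the cells are elongating. G. barbadense is grown for fibre that is longer and finer than that of G. hirsutum. Both species are allotetraploids that carry an A and a D subgenome, so most genes exist as a pair of similar copies. A probe set on this array is a group of short oligonucleotides designed on expressed sequences, for Ghi and GhiAffx IDs those of G. hirsutum and for Gra and GraAffx IDs those of G. raimondii, a diploid relative of the D subgenome. A probe with a mismatch to its transcript binds it less well, so signal depends on the transcript's level and on how well the probes match it. These were not measured separately. In bulk fibre, fewer cells that express a transcript and less RNA per cell cannot be told apart either.

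The files used here pair no probe set with a gene, and the reference table lists gene models of G. barbadense without probe set IDs. The 35 are therefore named by their probe set ID alone, and neither the genes they read nor markers of fibre could be looked up.

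In VH8-4602 the 35 probe sets spanned a wide range of signal. Their means over the replicates ran from 7.11 to 10.75, with a median of 8.31 on the log2 scale. Of the 35, 14 averaged between 7 and 8, 12 between 8 and 9, 3 between 9 and 10, and 6 above 10. They belonged to the dimmer part of the bright probe sets. The 8708 other probe sets above 7 on both VH8-4602 arrays had a median of 9.78, 29 of the 35 lay below that median, and 2923 of the 8708 (33.6%) lay above the brightest of the 35.

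In Guazuncho 2 the same probe sets averaged 2.12 to 3.86, with a median of 2.86. How dark this was could be read from 74 negative control probe sets, whose highest values were 3.23 and 3.33 on the Guazuncho 2 arrays and whose medians were 2.02 and 2.05. Of the 35, 21 lay at or below the highest negative control on both Guazuncho 2 arrays, and 4 on only 1 of them. The other 10 read above it on both arrays, so for these the name "dark" holds for the bar at 4 and not for the negative controls.

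**Figure D1:**
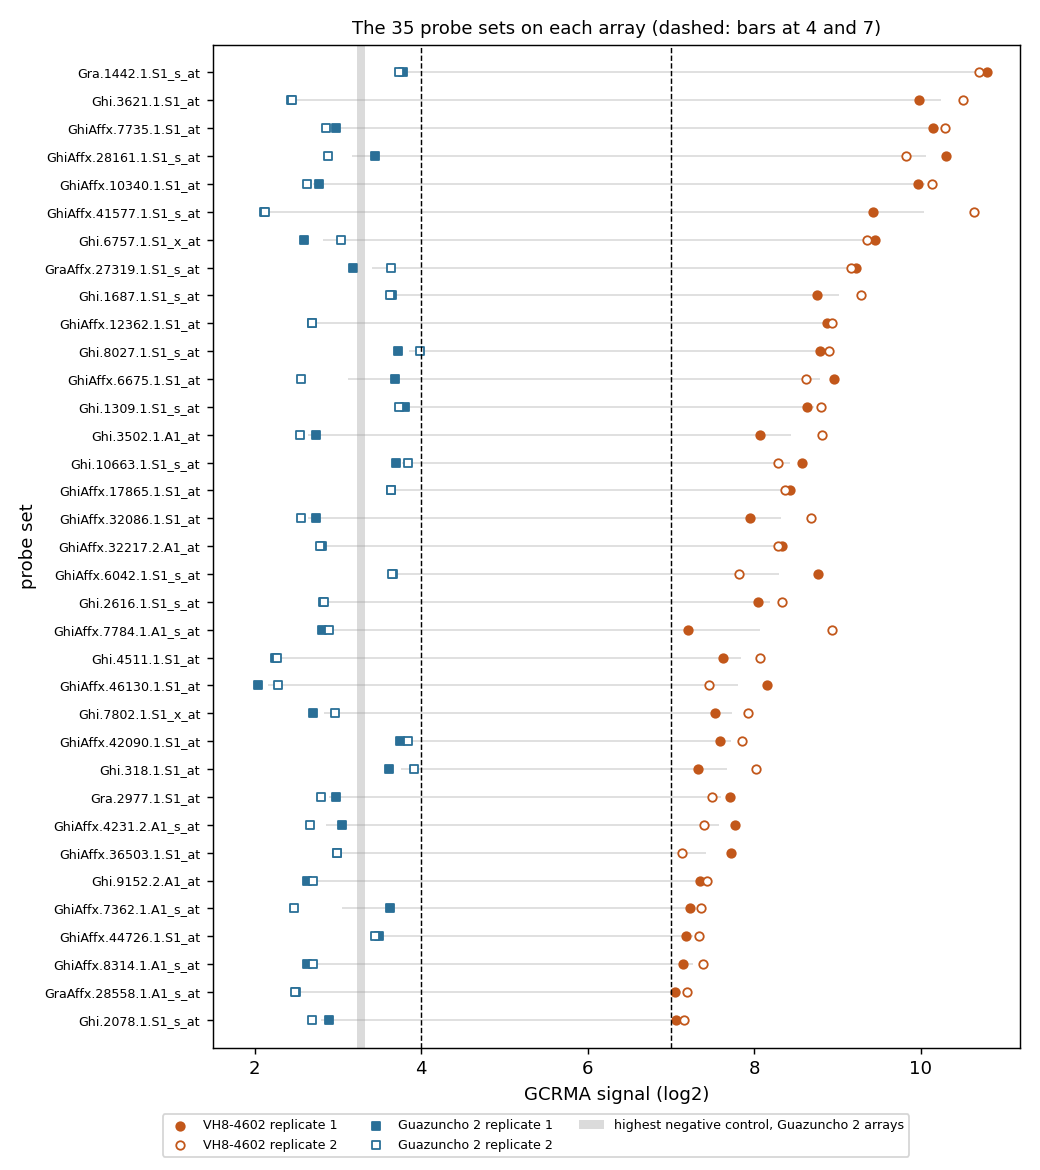
GCRMA signal (log2) of each of the 35 probe sets on the VH8-4602 arrays (circles) and the Guazuncho 2 arrays (squares), sorted by VH8-4602 mean, with filled symbols for replicate 1 and open symbols for replicate 2. Grey lines join the means of the genotypes, dashed lines mark the bars at 4 and 7, and the grey band spans the highest negative controls of the Guazuncho 2 arrays, 3.23 and 3.33; 10 probe sets lie to the right of it on both Guazuncho 2 arrays.

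The log2 difference of VH8-4602 minus Guazuncho 2 ran from 3.79 to 7.91, with a median of 5.22. Differences of up to 4 were found in 3 probe sets, of 4 to 5 in 14, of 5 to 6 in 10, of 6 to 7 in 4 and of 7 to 8 in 4. Signal near background has only a bound, so each fold was also computed against the higher of the probe set's own value and the highest negative control of each Guazuncho 2 array. On that basis the 35 were 13.8-fold to 127-fold higher in VH8-4602, with a median of 27.8-fold. For the 10 above the negative controls on both Guazuncho 2 arrays this is the measured fold, and for the others it is a lower bound. It was 16-fold or more for 28 probe sets and 64-fold or more for 7.

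Placing every probe set by its mean in both genotypes showed the 35 as a sparse group away from the diagonal. The mirror image, with both VH8-4602 arrays below 4 and both Guazuncho 2 arrays above 7, held 72 probe sets, or 0.822% of the 8756 that were above 7 on both Guazuncho 2 arrays. The median in the bright genotype was 8.31 for the 35 and 8.32 for the mirror image. The brightest of the 35 averaged 10.75 in VH8-4602, against 12.76 in Guazuncho 2 for the brightest of the mirror image. Of the 72, 62 lay at or below the highest negative control on both VH8-4602 arrays, where that control read 3.64 and 3.46, higher than on the Guazuncho 2 arrays.

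**Figure D2:**
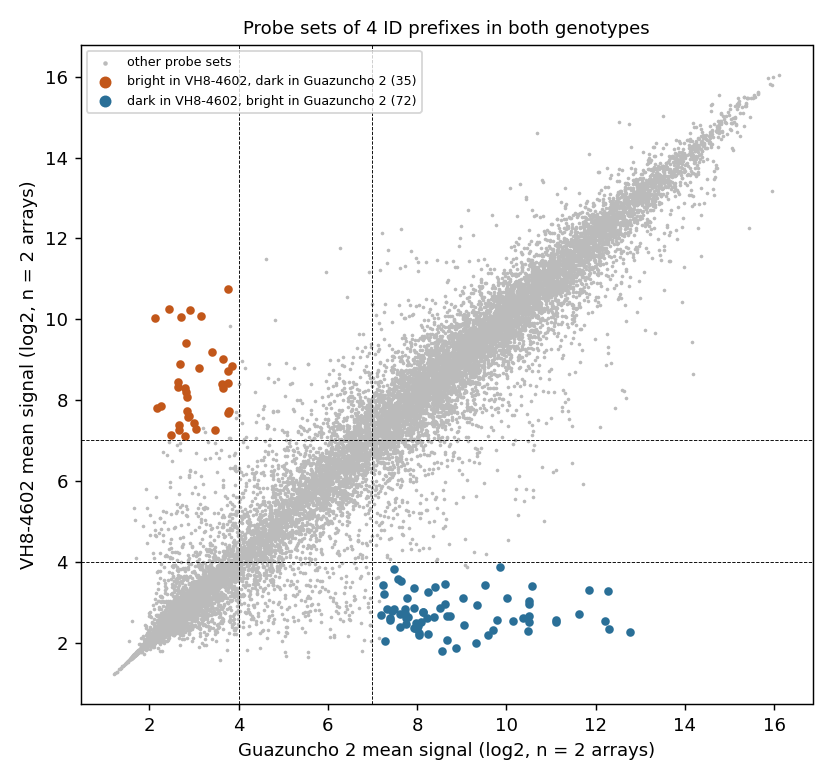
Mean GCRMA signal (log2, n = 2 arrays each) of the 23868 probe sets with the 4 ID prefixes, VH8-4602 on the vertical axis and Guazuncho 2 on the horizontal axis, with dashed lines at 4 and 7. The 35 probe sets described here (orange) reach 10.75 in VH8-4602, and the 72 of the mirror image (blue) reach 12.76 in Guazuncho 2.

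The 35 formed the low end of a thin tail. Among the 8743 probe sets above 7 on both VH8-4602 arrays, 7160 averaged above 8 in Guazuncho 2 and 1136 averaged 7 to 8. The numbers fell to 330 at 6 to 7, 54 at 5 to 6, 25 at 4 to 5, 17 at 3 to 4 and 21 at 2 to 3, and none averaged under 2. The lowest of these bins held more probe sets than the next. From the Guazuncho 2 side, 11373 other probe sets were also below 4 on both Guazuncho 2 arrays. Of these, 10988 were below 4 on the VH8-4602 arrays too, which left 385 in between.

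**Figure D3:**
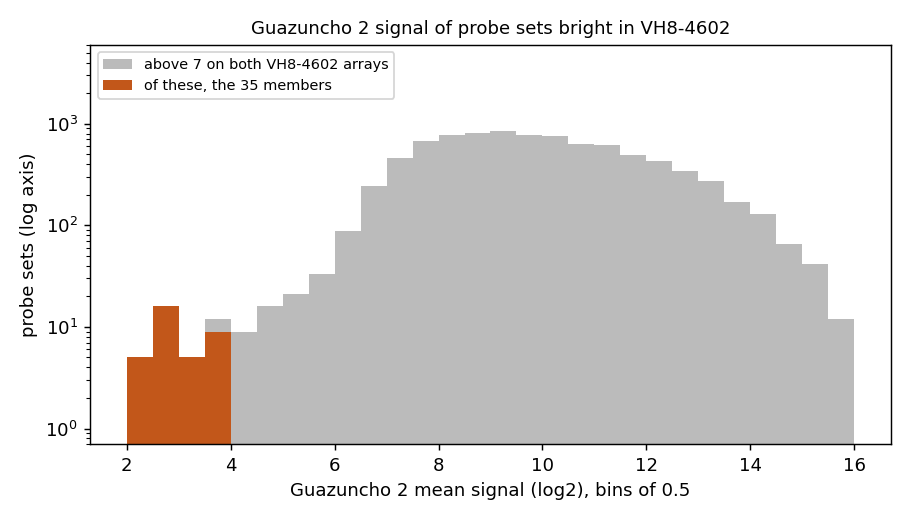
Guazuncho 2 mean signal (log2, bins of 0.5) of the 8743 probe sets above 7 on both VH8-4602 arrays, as a count on a log axis, with the 35 described here in orange. The count falls steeply below 7 and levels off below 5, where it stays low.

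Values close to the bars show how the edge of the set was drawn. Just inside, Ghi.8027.1.S1_s_at read 8.79 and 8.90 in VH8-4602, against 3.73 and 3.99 in Guazuncho 2. GraAffx.28558.1.A1_s_at read 7.05 and 7.20 in VH8-4602, against 2.49 and 2.48 in Guazuncho 2, and Ghi.2078.1.S1_s_at read 7.06 and 7.16, against 2.90 and 2.69. These 3 entered by 0.01, 0.05 and 0.06. Just outside, Ghi.6299.1.A1_at read 7.00 and 7.14 in VH8-4602, the lower of them under the bar before rounding, against 3.76 and 3.80 in Guazuncho 2. Ghi.1107.2.S1_at read 6.97 and 7.65 in VH8-4602, against 3.14 and 3.29 in Guazuncho 2, and GhiAffx.7816.1.A1_at read 6.95 and 6.97, against 3.48 and 3.16. In all, 12 probe sets that were below 4 on both Guazuncho 2 arrays passed 7 on only 1 VH8-4602 array, and 7 that passed 7 on both VH8-4602 arrays were below 4 on only 1 Guazuncho 2 array.

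The 6 brightest probe sets in VH8-4602 all averaged above log2 10 there. Gra.1442.1.S1_s_at, one of 4 in the set with a G. raimondii prefix, was the brightest. It read 10.80 and 10.71 in VH8-4602, against 3.79 and 3.74 in Guazuncho 2. Both Guazuncho 2 values were above the negative controls, so its difference of 6.99 is a measured one and corresponds to 127-fold. Ghi.3621.1.S1_at read 9.98 and 10.51 in VH8-4602, against 2.44 and 2.45 in Guazuncho 2. GhiAffx.7735.1.S1_at read 10.15 and 10.29 in VH8-4602, against 2.98 and 2.86 in Guazuncho 2. Both were below the highest negative control in Guazuncho 2, and were at least 125-fold and at least 123-fold higher in VH8-4602.

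Of the same 6, GhiAffx.28161.1.S1_s_at read 10.31 and 9.83 in VH8-4602, against 3.45 and 2.89 in Guazuncho 2, where the first value was above the highest negative control of its array and the second below. GhiAffx.10340.1.S1_at read 9.97 and 10.13 in VH8-4602, against 2.77 and 2.63 in Guazuncho 2. GhiAffx.41577.1.S1_s_at read 9.43 and 10.64 in VH8-4602, against 2.12 and 2.13 in Guazuncho 2. They were at least 103-fold, 109.6-fold and 108-fold higher in VH8-4602. The bound of GhiAffx.41577.1.S1_s_at rested strongly on the VH8-4602 array used, and became 165-fold when replicate 1 was left out and 71.3-fold when replicate 2 was. These 6 also had the widest differences of the set, at 6.90 to 7.91 as read and at 6.68 to 6.99 as bounds. The order among them depended on the floor, since GhiAffx.41577.1.S1_s_at was widest as read, at 7.91, but had a bound of 6.76, below the 6.99 of Gra.1442.1.S1_s_at.

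Next in brightness came a group at log2 9 to 10. Ghi.6757.1.S1_x_at read 9.45 and 9.35 in VH8-4602, against 2.59 and 3.04 in Guazuncho 2, and was at least 69.8-fold higher in VH8-4602. GraAffx.27319.1.S1_s_at read 9.22 and 9.16 in VH8-4602, against 3.19 and 3.64 in Guazuncho 2. Ghi.1687.1.S1_s_at read 8.75 and 9.28 in VH8-4602, against 3.65 and 3.63 in Guazuncho 2. Only the first of these 3 lay under the negative control maximum on both Guazuncho 2 arrays.

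The 10 probe sets that stayed above the negative controls on both Guazuncho 2 arrays lay between those controls and the bar at 4 there by selection. Besides Gra.1442.1.S1_s_at, Ghi.8027.1.S1_s_at and Ghi.1687.1.S1_s_at, they were Ghi.1309.1.S1_s_at, Ghi.10663.1.S1_s_at, Ghi.318.1.S1_at, GhiAffx.17865.1.S1_at, GhiAffx.6042.1.S1_s_at, GhiAffx.42090.1.S1_at and GhiAffx.44726.1.S1_at. GhiAffx.44726.1.S1_at was the dimmest of them, with 7.18 and 7.34 in VH8-4602, against 3.50 and 3.45 in Guazuncho 2. Its difference of 3.79 was the smallest of the set. Ghi.318.1.S1_at read 7.33 and 8.03 in VH8-4602, against 3.61 and 3.91 in Guazuncho 2, a difference of 3.92. GhiAffx.42090.1.S1_at read 7.59 and 7.86 in VH8-4602, against 3.75 and 3.84 in Guazuncho 2, a difference of 3.93. All 10 carry the letter S in their ID, as do 27 of the 35 (77.1%) and 71.9% of all probe sets above 7 on both VH8-4602 arrays.

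At the other extreme, 3 probe sets averaged under 2.3 in Guazuncho 2, near the medians of the negative controls. Besides GhiAffx.41577.1.S1_s_at they were GhiAffx.46130.1.S1_at and Ghi.4511.1.S1_at. GhiAffx.46130.1.S1_at read 8.16 and 7.46 in VH8-4602, against 2.05 and 2.28 in Guazuncho 2. Ghi.4511.1.S1_at read 7.63 and 8.07 in VH8-4602, against 2.25 and 2.27 in Guazuncho 2.

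Replicates of VH8-4602 lay further apart in the 35 than in other probe sets of the same brightness. The absolute gap between the VH8-4602 arrays had a median of 0.26 on the log2 scale and ran from 0.04 to 1.74. It was above 0.5 in 10 of 35 (28.6%). Among 5744 other probe sets above 7 on both VH8-4602 arrays and within the same range of VH8-4602 means, the median gap was 0.12, and 2.02% had a gap above 0.5. The excess was seen at each level. Between 7 and 8, 3 of 14 had a gap above 0.5, against 40 of 1366 other probe sets, between 8 and 9 it was 4 of 12 against 40 of 1623, and between 9 and 11 it was 3 of 9 against 38 of 3115. These shares rest on single pairs of arrays and are given as a description.

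No single VH8-4602 array was the higher one throughout. Replicate 2 read above replicate 1 in 22 of the 35 (62.9%), much as in the 5744 others (60.6%). GhiAffx.7784.1.A1_s_at had the widest gap, with 7.20 and 8.94 in VH8-4602, against 2.81 and 2.90 in Guazuncho 2. Its bound of at least 27.8-fold became 50.7-fold when replicate 1 of VH8-4602 was left out and 15.2-fold when replicate 2 was. After GhiAffx.41577.1.S1_s_at, with a gap of 1.21, GhiAffx.6042.1.S1_s_at came next, with 8.77 and 7.82 in VH8-4602, against 3.66 and 3.65 in Guazuncho 2. GhiAffx.32086.1.S1_at followed, with 7.95 and 8.69 in VH8-4602, against 2.74 and 2.55 in Guazuncho 2. Despite these gaps the genotypes stayed far apart on every array, as the rule demanded.

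Wide gaps between VH8-4602 replicates were also counted by the signal in Guazuncho 2, where the darkest class was nearly the set itself, with 35 of its 38 probe sets. Among probe sets above 7 on both VH8-4602 arrays with a mean of up to 11, a gap above 0.5 was found in 10 of 38 (26.3%) whose Guazuncho 2 mean was up to 4, in 3 of 24 (12.5%) at 4 to 5, in 5 of 53 (9.43%) at 5 to 6, in 11 of 328 (3.35%) at 6 to 7, and in 99 of 5696 (1.74%) above 7. Within a narrower range of VH8-4602 means these shares did not fall steadily. At 7 to 8 they were 3 of 16, 0 of 15, 2 of 40, 7 of 253 and 31 of 1056 over the same classes, and at 8 to 9 they were 4 of 12, 3 of 8, 3 of 13, 4 of 61 and 30 of 1541. With the genotypes exchanged, the gap between Guazuncho 2 replicates was above 0.5 in 6 of 66 (9.09%) whose VH8-4602 mean was up to 4, in 2 of 40 (5%) at 4 to 5, in 3 of 62 (4.84%) at 5 to 6, in 23 of 279 (8.24%) at 6 to 7, and in 187 of 5726 (3.27%) above 7. That series did not fall steadily either. What the wider gaps reflect was not tested.

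**Figure D4:**
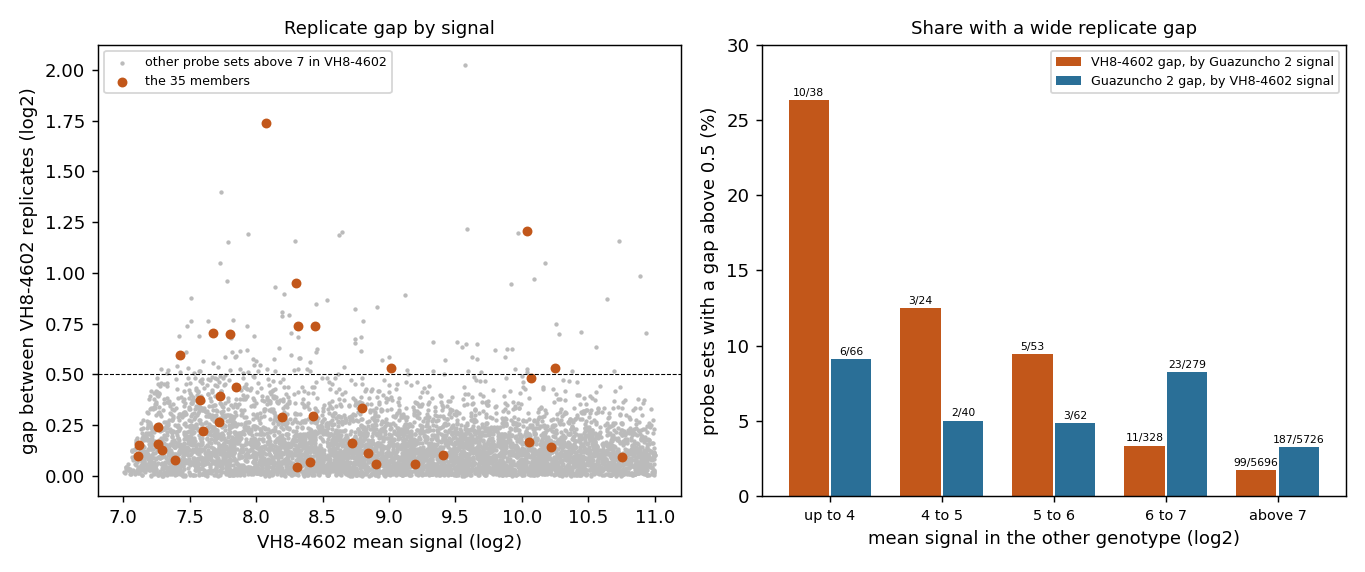
Left, the absolute gap between VH8-4602 replicates (log2) against the VH8-4602 mean for probe sets above 7 on both VH8-4602 arrays, with the 35 in orange and a dashed line at 0.5, which 10 of the 35 pass. Right, the percentage of probe sets with a gap above 0.5, by the mean signal in the other genotype, for VH8-4602 (orange) and Guazuncho 2 (blue), with the counts over each bar; the VH8-4602 share is 26.3% at up to 4 and 1.74% above 7.

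In Guazuncho 2 the replicates had a median gap of 0.10, against 0.02 in the 11373 other probe sets below 4 on both Guazuncho 2 arrays, whose median signal was 2.29. At Guazuncho 2 means of 2 to 3 the median gap was 0.09 in 21 of the set and 0.02 in 7857 others. Level was not matched within that class, and gaps at equal level were not compared. For the probe sets of the set under 2.3, the gaps were 0.01 in GhiAffx.41577.1.S1_s_at, 0.02 in Ghi.4511.1.S1_at and 0.24 in GhiAffx.46130.1.S1_at. At 3 to 4 the median gap was 0.12 in 14 of the set and 0.11 in 1386 others. A gap above 0.5 was found there in 3 of the 14 (21.4%) and in 157 of the 1386 (11.3%). Those 3 were the only ones of the 35 above 0.5. GhiAffx.6675.1.S1_at read 8.96 and 8.63 in VH8-4602, against 3.68 and 2.55 in Guazuncho 2. GhiAffx.7362.1.A1_s_at read 7.23 and 7.36 in VH8-4602, against 3.63 and 2.47 in Guazuncho 2. In both, replicate 1 of Guazuncho 2 lay above the highest negative control and replicate 2 below it. The third was GhiAffx.28161.1.S1_s_at, with a gap of 0.56.

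The array holds several probe sets for some ID numbers, and probe sets under the same number are called partners here. Whether partners read the same transcript is not known here, so a dark partner is not a failed repeat of a bright one. An ID gives a prefix, a number, a sub-number and a letter, S or A, so that Ghi.9152.1.S1_at and Ghi.9152.2.A1_at share a prefix and number. No 2 of the 35 did so. Of the 35, 28 had no partner on the array and 7 had 1 or more, 9 partners in all. The share with a partner was 20.0%, against 25.8% of all probe sets above 7 on both VH8-4602 arrays.

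None of the 9 partners reached 7 on any array, and 6 of them were below 4 on all 4 arrays. Of those 6, 4 shared the sub-number of their counterpart in the set and carried the other letter. Such other-letter partners were also below 4 on all arrays for 604 of 980 (61.6%) probe sets above 7 on all 4 arrays. Gra.1442.2.A1_s_at, the partner of the brightest of the 35, read 2.14 and 2.10 in VH8-4602, against 2.06 and 2.07 in Guazuncho 2. GhiAffx.28161.1.A1_s_at read 1.75 and 1.72 in VH8-4602, against 1.69 and 1.71 in Guazuncho 2, while the set's GhiAffx.28161.1.S1_s_at averaged 10.07 and 3.17. GhiAffx.8314.1.S1_s_at read 1.83 and 1.82 in VH8-4602, against 1.80 and 1.81 in Guazuncho 2, where the set's GhiAffx.8314.1.A1_s_at read 7.14 and 7.38 in VH8-4602, against 2.63 and 2.70. Ghi.2078.1.A1_at read 2.22 and 2.18 in VH8-4602, against 2.15 and 2.16 in Guazuncho 2.

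Such partners at the floor of the array were a little higher in VH8-4602 in all 6 cases, by 0.03 to 0.05. That is the size of the shift in the negative controls, which had a median difference of 0.03 and of which 71 of 74 were higher on both VH8-4602 arrays than on both Guazuncho 2 arrays.

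Ghi.9152 was the ID number with most partners. The set's Ghi.9152.2.A1_at read 7.35 and 7.43 in VH8-4602, against 2.63 and 2.70 in Guazuncho 2. Ghi.9152.1.S1_at read 5.05 and 5.13 in VH8-4602, against 2.22 and 2.25 in Guazuncho 2, so it showed the same direction at lower signal. Ghi.9152.2.S1_at read 2.28 and 2.25 in VH8-4602, against 2.23 and 2.24 in Guazuncho 2, and Ghi.9152.1.A1_at read 1.98 and 1.98, against 1.94 and 1.96. The probe sets with signal thus carried different letters under the sub-numbers 1 and 2.

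GhiAffx.32217 was the sole case in which a partner had signal in both genotypes. GhiAffx.32217.2.A1_at, one of the 35, read 8.33 and 8.29 in VH8-4602, against 2.81 and 2.79 in Guazuncho 2. Its partner GhiAffx.32217.1.A1_s_at read 5.71 and 6.34 in VH8-4602, against 4.10 and 4.39 in Guazuncho 2. The difference was at least 5.03 in the first, which was below the highest negative control on both Guazuncho 2 arrays and was chosen for its contrast. In the second the difference was 1.78. Ghi.3621.2.A1_at, the partner of Ghi.3621.1.S1_at, had replicates that went apart. It read 4.56 and 2.54 in VH8-4602, against 2.32 and 2.33 in Guazuncho 2, so 1 VH8-4602 array was above the negative controls and the other was not.

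**Figure D5:**
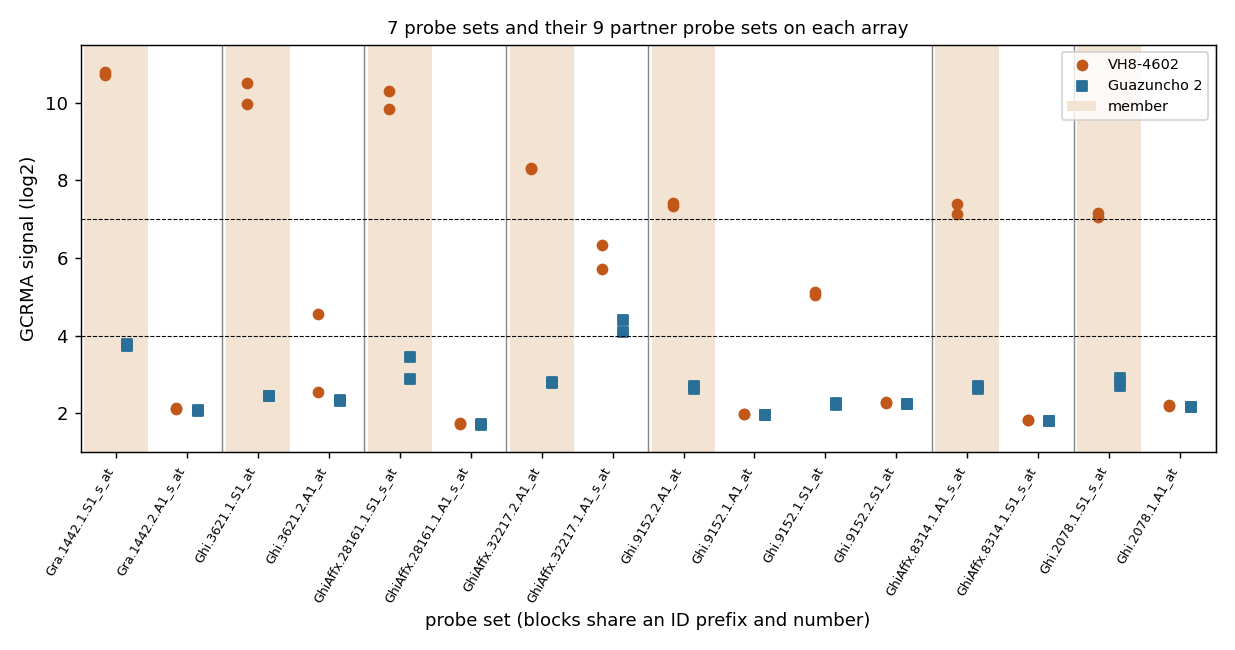
GCRMA signal (log2) on each array of the 7 probe sets with partners (shaded) and of their 9 partners, grouped by shared ID prefix and number, with VH8-4602 as circles on the left and Guazuncho 2 as squares on the right of each place. Dashed lines mark 4 and 7; no partner reaches 7, and Ghi.9152.1.S1_at and GhiAffx.32217.1.A1_s_at are the 2 with both VH8-4602 arrays above 4.

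Of the 9 partners, 2 passed the filter of the test across the array, which asked for a value above log2 4 on at least 2 arrays. Both were called higher in VH8-4602 by limma, where 25.1% of the 12603 probe sets tested were called higher. Ghi.9152.1.S1_at lay below the highest negative control on both Guazuncho 2 arrays, so its difference has only a bound, at least 1.81 on the log2 scale or at least 3.51-fold. The fit on its values as read gave 2.86 ± 0.09 (SE, limma adjusted p = 0.000149), and over the alternatives the limma adjusted p ran from 1.24e-05 to 0.0261. GhiAffx.32217.1.A1_s_at differed by 1.78 ± 0.24 (SE, limma adjusted p = 0.00573), and over the alternatives the limma adjusted p ran from 0.00135 to 0.0993, the highest of them with no moderation. Ghi.9152.1.S1_at passed the filter through its VH8-4602 arrays alone and so had to differ, and both calls come from the arrays that chose the set, so they are a description of these partners and no separate evidence.

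Partners were also compared with those of probe sets above 7 on all 4 arrays. There, 1299 had a partner under another sub-number, and for 818 of them (63.0%) at least 1 such partner was above 7 on both VH8-4602 arrays. Of the 35, 4 had partners under another sub-number, and none of these partners was above 7. Counted by pair, such a partner was above 7 in 2474 of 4472 pairs (55.3%), against 0 of 5 in the set. The groups were not matched for brightness or for the number of partners, and more partners give more chances of a bright one. A partner with the same sub-number and the other letter was below 4 on all arrays for 4 of 4 in the set and for 604 of 980 (61.6%) of those above 7 on all 4 arrays. In the mirror image such a partner was below 4 on all arrays for 9 of 10, and 2 of 8 with a partner under another sub-number had one above 7 on both Guazuncho 2 arrays. With 7 probe sets at issue, a difference between these groups was not tested.

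By ID prefix, the set held 13 Ghi, 18 GhiAffx, 2 Gra and 2 GraAffx probe sets. As a share of the probe sets above 7 on both VH8-4602 arrays, the 18 GhiAffx were 0.587% of 3065, the 2 GraAffx 0.458% of 437, the 2 Gra 0.361% of 554 and the 13 Ghi 0.277% of 4687. In the mirror image the shares of those above 7 on both Guazuncho 2 arrays ran in another order, with Ghi at 0.968%, then GhiAffx at 0.729%, Gra at 0.540% and GraAffx at 0.233%. GhiAffx thus made up 51.4% of the 35, against 30.6% of the mirror image and 35.1% of all probe sets above 7 in VH8-4602, and the 4 Gra and GraAffx probe sets are too few to rank. No test was made of these shares, since probe sets of related transcripts are not independent.

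The ID suffix tells how specific a probe set's design is. The plain suffix _at marks probes meant for 1 transcript, _s_at probes shared by several similar transcripts, and _x_at a set in which some probes match unrelated sequences as well. Of the 35, 17 ended in _at (48.6%), 16 in _s_at (45.7%) and 2 in _x_at (5.71%). Among all probe sets above 7 on both VH8-4602 arrays these shares were 40.7%, 49.6% and 8.34%, and in the mirror image they were 68.1%, 23.6% and 4.17%. Within the set the _at members had a median of 8.31 in VH8-4602 and 2.80 in Guazuncho 2, and the _s_at members 8.36 in VH8-4602 and 3.11 in Guazuncho 2. Of the 17 with _at, 12 were at or below the highest negative control on both Guazuncho 2 arrays, against 7 of the 16 with _s_at. By letter, 27 carried S and 8 carried A, and the 8 with A had a lower median in VH8-4602 (7.49, against 8.43 for S).

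The remaining probe sets of the set lay between these cases. GhiAffx.12362.1.S1_at stood out for its close replicates, with 8.88 and 8.93 in VH8-4602, against 2.69 and 2.69 in Guazuncho 2, and was at least 49.4-fold higher in VH8-4602. Ghi.3502.1.A1_at was the brightest with the letter A, at 8.08 and 8.81 in VH8-4602, against 2.74 and 2.55 in Guazuncho 2. Ghi.2616.1.S1_s_at, Ghi.7802.1.S1_x_at, Gra.2977.1.S1_at, GhiAffx.4231.2.A1_s_at and GhiAffx.36503.1.S1_at averaged 7.43 to 8.19 in VH8-4602, against 2.83 to 2.99 in Guazuncho 2. These 5 were at least 17.8-fold to at least 30.2-fold higher in VH8-4602.

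The choice of scale bears on how many probe sets meet the rule. The 27 hybridization controls, which detect transcripts spiked into each sample, averaged 11.24 in VH8-4602 and 10.95 in Guazuncho 2. With these controls set equal, the 12603 tested probe sets had a median difference of -0.24, against 0.05 as deposited. The tests then called 1557 higher and 4074 lower in VH8-4602, against 3162 and 2629 as deposited. That scale lowers VH8-4602 relative to Guazuncho 2, which makes the rule harder to meet. On it 28 probe sets met the rule, all of them among the 35, so this overlap is no check on the set. The median difference of the 35 was 4.92.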

How the data were processed

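Fibre RNA was read on 4 biotin-labelled one-colour Affymetrix cotton arrays, 2 per genotype. Per the submitters' processing notes the authors used GCRMA, whose version is not given in the sources used here, and the deposited values are on a log2 scale as judged from their range. GCRMA corrects background by probe composition, sets the arrays' distributions equal and summarises each probe set, which compresses low signal and removes shared shifts.

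The labels gave the genotypes, and a replicate number is only a name. The members and all lists and settings were chosen with earlier results of these data known. Members, partners (same ID prefix and number) and replicate gaps were taken from the values as deposited. Negative controls were 74 probe sets with RPTR, Tag or TrpnX in the ID, leaving out 1 whose values, once seen, all exceeded log2 15. The test across the array was limma 3.58.1 in R 4.3.3 (lmFit, eBayes, Benjamini-Hochberg adjusted p under 0.05, no covariates) on 12603 probe sets above log2 4 on at least 2 of 4 arrays, AFFX controls left out, with 2 residual and 2.56 prior degrees of freedom. The limma fit was tested on simulated data. IDs were named by rule (those with partners, the 6 brightest and 6 widest, the 4 widest replicate gaps, the 3 nearest the bars on each side); other IDs were named after their values were seen. Figures were drawn with matplotlib 3.10.9. Alternatives were other bars, scales, filters, limma settings and each array left out. No probe sequences were used here.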

Additional observations from a re-analysis of the deposited data

How the results depend on the processing

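The number of probe sets that met the rule depended on the bars, which set it by construction. It was 19 with the dark bar at log2 3, 58 with it at 5, and 21 with each Guazuncho 2 array at or below its highest negative control. It was 61 with the bright bar at 6 and 18 with it at 8, against 35. Quantile normalization and median centring each gave 37, with all 35 among them. Median centring moved the median difference of the 35 to 5.30, so it made the rule easier to meet. Quantile normalization repeats a step of GCRMA, which had already set the arrays' distributions equal. Neither overlap is therefore a check on the set. Rules on 3 arrays gave 38 to 42. These only drop a condition, so all 35 had to remain among them. The median difference of the 35 moved to 4.92 with the hybridization controls set equal, which shifts every probe set alike, and was 5.11 to 5.29 with 1 array left out, against 5.22. Of the partners called higher, 1 of 2 was kept with no moderation in limma, where GhiAffx.32217.1.A1_s_at had an adjusted p of 0.0993, and 0 with a filter at log2 6, which neither passes. Counting only partners with the same sub-number also left 0, as neither shares it. Across the array 1875 probe sets were called with no moderation and 3278 at an adjusted p under 0.01, against 5791; the first rests on 2 residual degrees of freedom and the second is stricter by construction. No paired analysis was possible because the genotypes have no array number in common in the labels. Signal over background limits the Guazuncho 2 values of the set, other than those of the 10 above the negative controls on both arrays.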

Other observations

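Equal gaps between replicates occurred in 1 of the 35. In GhiAffx.4231.2.A1_s_at, which read 7.77 and 7.39 in VH8-4602, against 3.04 and 2.67 in Guazuncho 2, the replicates differed by 0.375 in VH8-4602 and by 0.375 in Guazuncho 2, equal to within 1e-09. Over the 23868 probe sets of the 4 prefixes, 66 had gaps equal to within this tolerance. None of the 105 probe sets outside the 4 prefixes that carried GarAffx or GbaAffx IDs met the bars of 7 and 4. The share that met them among the 23868 was 0.147%, so absence from so small a group is no result about its design.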
